A study of Mus musculus with 21 samples.

Results

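The heavy chain variable (Ighv) genes supply the first part of the antibody heavy chain, and the one Ighv gene a B cell has rearranged is a tag of its origin. All rows of the deposited gene list whose symbol starts with Ighv were taken, without Ighv1-72, a gene known from responses to the hapten NP, which gave 124 member genes among 14493. Each of 6619 lymph node cells was assigned 1 dominant Ighv gene where that gene had at least 2 UMIs (unique molecular counts) and at least 2 times the UMIs of the next, and each cell was then counted once, so that a single cell with very many UMIs carried no more weight than another. A member gene was dominant in 5115 cells (77.3%, exact 95% binomial interval 76.2% to 78.3%), Ighv1-72 in 405, and 1099 had no clear gene. Mice had been immunised under the skin with 100 µg of NP-KLH, a hapten on a carrier protein, in adjuvant, and given 5 mg of tamoxifen once, 6 or more days later, to switch on the yellow fluorescent label eYFP through Cre-ERT2. All groups share both treatments, no group is unimmunised, and the mouse strain, age and the promoter driving Cre-ERT2 are not given in the sources used here. Draining lymph nodes were taken at day 10, day 16 or day 22 of the primary response, from 2 mice each, and live IgD-negative eYFP+ cells were sorted into plasma cell (PC) and non-PC fractions, which were captured in separate wells, with the mice pooled within a well and told apart by hashtags. The authors named each cell as dark zone (DZ), light zone (LZ), LZtoDZ, memory precursor (preMem), plasma cell precursor (prePC) or PC, and DZ, LZ and LZtoDZ together are called germinal centre cells here.

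In a germinal centre, B cells divide and mutate their receptor genes in the dark zone, and are tested for antigen binding in the light zone. Cells that leave become memory cells or plasma cells, which secrete antibody and fill with immunoglobulin mRNA. Every descendant of a B cell keeps its Ighv rearrangement, so a gene that takes a growing share of cells can reflect few expanding clones or many. Receptor sequences were not used here, so clones and mutations were not analysed here.

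The germline sequences of the 4 most used members are shown because the assignment of a cell rests on telling such genes apart. They are the first 300 bases of the V exon, read 5′ to 3′ on the minus strand of chromosome 12 (GRCm38, GENCODE release M21), at chr12:114746278-114746577 for Ighv1-22, chr12:115920284-115920583 for Ighv1-81, chr12:115158408-115158707 for Ighv1-53 and chr12:115507550-115507849 for Ighv1-64. All lie in exon 2 of 2 and are coding, with no untranslated sequence. Capitals mark the bases that differ from the most similar other Ighv gene, which is Ighv1-18 for Ighv1-22 (10 differences over 305 bases, 96.7% identity), Ighv1-85 for Ighv1-81 (22 differences, 92.8%), and Ighv1-72 for both Ighv1-53 and Ighv1-64 (12 differences each, 96.1%).
Ighv1-22: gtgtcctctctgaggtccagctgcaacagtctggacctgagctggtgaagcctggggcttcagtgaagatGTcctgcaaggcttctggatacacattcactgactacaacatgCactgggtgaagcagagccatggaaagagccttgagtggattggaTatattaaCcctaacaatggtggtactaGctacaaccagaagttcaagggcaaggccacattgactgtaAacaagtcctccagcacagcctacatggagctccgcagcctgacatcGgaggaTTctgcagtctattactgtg
Ighv1-81: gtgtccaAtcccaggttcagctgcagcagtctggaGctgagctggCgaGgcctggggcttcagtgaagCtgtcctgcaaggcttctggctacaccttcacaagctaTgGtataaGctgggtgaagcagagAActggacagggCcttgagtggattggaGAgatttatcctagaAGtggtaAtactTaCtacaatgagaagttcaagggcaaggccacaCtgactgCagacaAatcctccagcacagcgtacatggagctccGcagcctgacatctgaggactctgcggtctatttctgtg
Ighv1-53: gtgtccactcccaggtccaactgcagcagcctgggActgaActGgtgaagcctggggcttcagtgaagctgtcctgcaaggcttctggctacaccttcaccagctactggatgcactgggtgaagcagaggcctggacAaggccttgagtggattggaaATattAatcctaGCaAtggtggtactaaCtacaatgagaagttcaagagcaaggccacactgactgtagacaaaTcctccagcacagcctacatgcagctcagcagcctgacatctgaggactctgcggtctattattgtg
Ighv1-64: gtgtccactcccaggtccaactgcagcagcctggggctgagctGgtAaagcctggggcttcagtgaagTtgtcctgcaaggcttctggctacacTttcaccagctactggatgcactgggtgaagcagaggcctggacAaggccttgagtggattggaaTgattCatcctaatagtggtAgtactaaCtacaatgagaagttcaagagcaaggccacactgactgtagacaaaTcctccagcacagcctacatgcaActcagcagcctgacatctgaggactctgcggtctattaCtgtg

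The members lie on chromosome 12 between positions 113572927 and 116000461, all 123 that the annotation holds on the minus strand. Of these, 104 are annotated as V genes and 19 as V pseudogenes, and 1 symbol (Ighv1-13.1) had no entry. Over the V exon, 57 of the 104 had another Ighv gene at 95% identity or more and 13 at 98% or more, so that counts of close relatives may be split between them. The closest pair, Ighv1-62-2 and Ighv1-71, was identical at 100%. All 124 members had at least 3 UMIs in the data. A dominant cell was found for 104 of them, for 47 in all 6 mice and for 11 in a single mouse. The annotated V genes held 99.5% of the called cells, and 7 of the 19 pseudogenes held 25 cells between them.

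The libraries gave 6260885 to 18599219 UMIs per mouse and 1335 to 70744 per cell. The sorted PC fraction held 436 cells and the non-PC fraction 6183, and 6 cell barcodes occurred in both. Markers were compared with the authors' states: summed plasma cell markers stood at 19391 to 30905 CPM (UMIs relative to the total of their sum) in PC and at 1838 to 3039 in DZ and LZ cells, memory markers at 711 to 930 in preMem and at 7.39 to 58.9 in DZ and LZ cells, and germinal centre markers at 926 to 1381 in DZ and LZ cells. PrePC sums overlapped other states, with plasma cell markers at 2653 to 5690 and memory markers at 286 to 864. Dark zone markers had a median of 423 in preMem and 310 in LZ sums. T cell markers reached at most 148 CPM in DZ, LZ, preMem and PC sums and 391 in prePC sums, and natural killer cell markers were at 0 in PC and preMem sums. The dark zone markers were lower in LZtoDZ cells (79.4 to 150 CPM) than in LZ (298 to 368) or DZ cells (414 to 485). The share of cells with no dominant gene was 11.5% and 10.1% on day 10, 14.1% and 17.5% on day 16, and 20.9% and 23.7% on day 22, and the median UMIs of the dominant gene were 15 and 18, then 9 and 11.5, then 8 and 7. The part of these shifts in the results over the days was not tested.

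Ighv1 was the largest family. Its 64 members were dominant in 67.2% ± 4.54 (SD, n = 6 mice) of the called cells, from 60.8% to 74.5%. Ighv5 followed with 5.88% ± 2.34 from 11 members, then Ighv14 with 5.00% ± 2.92, Ighv3 with 4.03% ± 1.19, Ighv9 with 3.92% ± 1.68 and Ighv6 with 3.76% ± 2.91. In PC cells the Ighv1 share was 57.7% ± 16.4, with mice from 36.6% to 78.4%. Along the chromosome, the 41 members nearest the constant genes (113572927 to 114320324), none of them Ighv1, held 22.2% ± 5.97 of called cells. The middle 41 held 37.1% ± 7.74, and the 41 farthest held 40.7% ± 5.00.

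A few genes dominated, and they differed between mice. The 10 most used members took 45.6% ± 13.5 of called cells (2452 cells). Ighv1-22 (ENSMUSG00000094561, chr12:114746273-114746706) led with 11.8% ± 8.82. Its share was 3.22% and 3.0% on day 10, 11.5% and 10.3% on day 16, and 26.3% and 16.7% on day 22, so the 3 days did not overlap. Ighv1-81 (chr12:115920279-115920712) averaged 6.19% ± 5.35, and its highest value, 16.6%, came from day 10 mouse 2, with 2.5% to 6.43% in the other mice. Ighv1-53 (chr12:115158403-115158835) averaged 4.81% ± 4.44, with 12.9% in day 22 mouse 2 and 1.11% in day 22 mouse 1. Ighv1-64 (chr12:115507545-115508031) averaged 4.71% ± 3.10, with the highest share, 9.52%, in day 22 mouse 1. Next came Ighv1-26 (3.95% ± 0.92), Ighv9-3 (3.22% ± 1.79), Ighv3-6 (3.15% ± 0.89), Ighv6-3 (2.75% ± 2.77), Ighv1-58 (2.52% ± 4.61) and Ighv1-9 (2.45% ± 1.11). Neighbours in this order differed by less than the SD of the higher gene. Ighv1-58 owed its place to 1 mouse, since it held 11.9% of called cells in day 22 mouse 1 and 0.34% to 0.92% in the other mice. The plot of usage by mouse shows this spread.

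**Figure D1:**
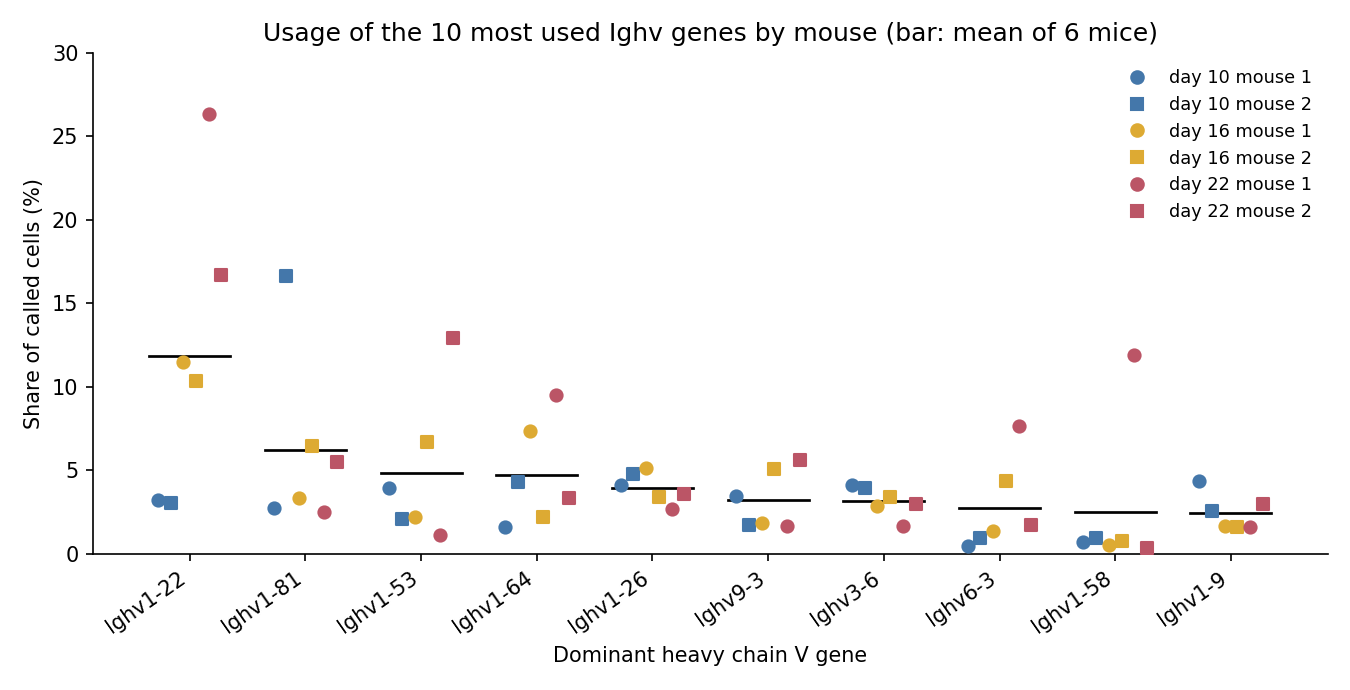
Share of called cells (%, vertical axis) for the 10 most used Ighv genes, with 1 point per mouse, colour for the day and shape for the mouse, and a bar at the mean of 6 mice. Ighv1-22 reaches 26.3% in day 22 mouse 1, Ighv1-81 reaches 16.6% in day 10 mouse 2 and Ighv1-58 reaches 11.9% in day 22 mouse 1.

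The comparisons between states and days ask whether cells of different states and days draw on the same genes. For the 10 most used members 40 such comparisons of shares were made with exact 2-sided permutation tests over mice. Of these, 6 had a p under 0.05, and 0 passed the Benjamini-Hochberg adjustment over the 40. With 6 mice the smallest p is 0.03125 for a difference within mice and 0.0222 for a slope over the days, so the shares below are given as sizes and directions.

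Ighv1-22 was more common in the dark zone than in the light zone in every mouse. In DZ cells its share was 4.35% and 3.74% on day 10, 19.1% and 15.3% on day 16, and 39.0% and 22.6% on day 22. In LZ cells the same mice had 1.92% and 3.02%, then 8.06% and 8.31%, then 17.1% and 12.0%. On day 10 the DZ shares rested on 7 of 161 and 12 of 321 called cells. Their exact 95% intervals (1.77% to 8.75% and 1.95% to 6.44%) included the LZ share of the same mouse. The mean was 17.4% ± 13.1 in DZ and 8.42% ± 5.67 in LZ, a difference of −8.94 percentage points, lower in LZ in 6 of 6 mice (exact p = 0.03125, adjusted p = 0.208). In preMem cells the gene was rare: 1 of 42 and 7 of 246 called cells on day 10, 0 of 36 and 2 of 54 on day 16, and 0 of 42 and 0 of 30 on day 22. Taking 3 counts of the total as the limit that a count of 0 allows, the mice with none allow shares of up to 8.33%, 7.14% and 10%. The preMem mean was 1.49% ± 1.68 against 12.6% ± 9.53 of germinal centre cells, lower in 6 of 6 mice (exact p = 0.03125, adjusted p = 0.208). On day 22 these limits lay below the germinal centre shares of 28.6% (exact 95% interval 25.8% to 31.5%) and 17.2% (14.7% to 19.9%). In PC cells the mean was 10.0% ± 13.2 (exact p = 0.625), but it rested on 1 to 4 cells per mouse, 4 of 11 of them in day 22 mouse 2. Intervals and limits cover counting error only.

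**Figure D2:**
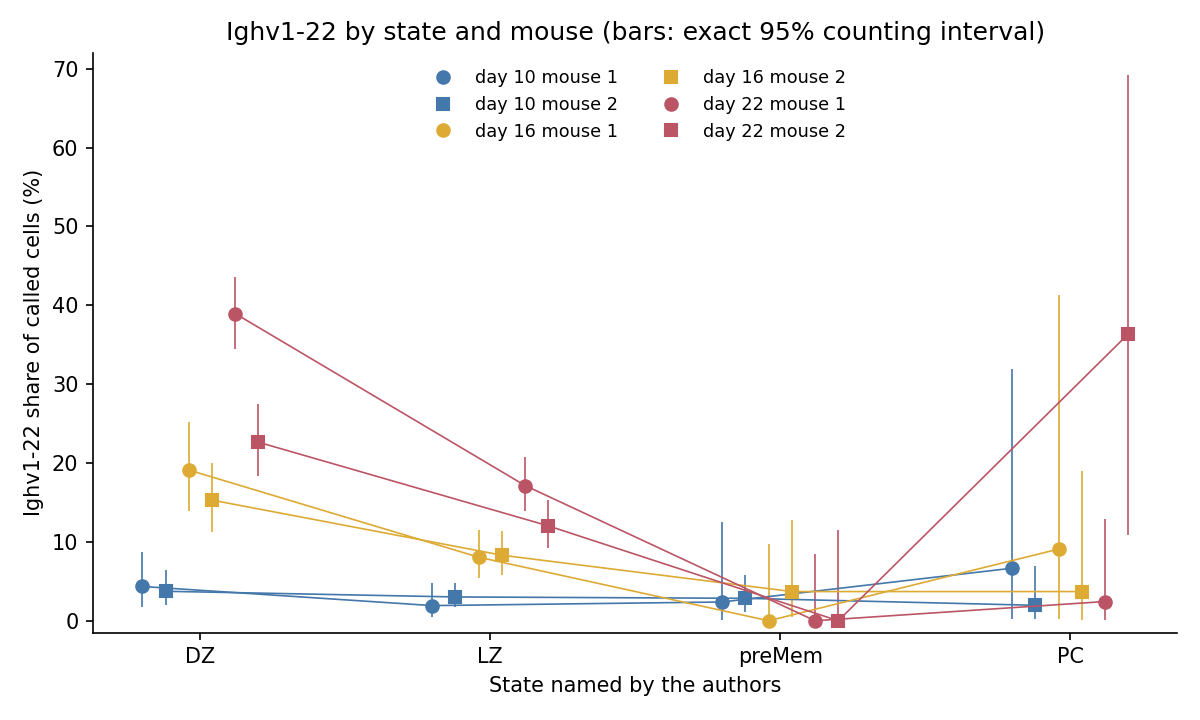
Ighv1-22 share of called cells (%, vertical axis) in DZ, LZ, preMem and PC cells, with 1 line per mouse and exact 95% counting intervals. Each line is lower in LZ than in DZ, least so for day 10 mouse 2 (3.74% and 3.02%), and the day 22 mice stand at 0 in preMem cells.

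Over the days, Ighv1-22 averaged 3.22% of called germinal centre cells on day 10, 11.7% on day 16 and 22.9% on day 22, a slope of 1.64 points per day (exact p = 0.0222, the smallest possible; adjusted p = 0.208). Taken over all germinal centre cells, with those of no clear gene included, its share was 2.40% and 2.55%, then 9.26% and 8.58%, then 22.1% and 12.3%. The NP-typical Ighv1-72 held 13.4% and 10.0%, then 9.95% and 4.50%, then 0.70% and 3.82% of the same cells.

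The difference between the zones was also seen within the cell cycle phases called by the authors, with no test. Ighv1-22 was at 13.8% ± 11.8 of DZ and 6.56% ± 4.85 of LZ cells in G1, at 19.9% ± 16.2 and 12.1% ± 8.19 in S, and at 18.6% ± 12.5 and 7.94% ± 6.70 in G2M, higher in DZ in 5 of 6 mice in each phase. Cells in S or G2M made up 67.5% of germinal centre cells with Ighv1-22, against 53.4% of those with genes outside the 10 most used. These shares pool mice and zones, and 284 and 142 of the 618 Ighv1-22 cells came from the day 22 mice. By mouse they ran from 61.0% to 86.7% and from 44.2% to 62.4%, with no test. After every cell was thinned to 4727 UMIs the LZ minus DZ difference was −8.77 points (exact p = 0.03125).

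Cells with Ighv1-22 did not carry 1 light chain or isotype across mice. Lambda was the light chain in 35.6% of those with a clear light chain (270 cells), from 10.2% in day 22 mouse 1 to 63.4% in day 16 mouse 2. IgM was the dominant heavy chain class in 50.5% of 398 cells, IgG1 in 26.1% and IgG2b in 16.1%, and IgG2b reached 55.8% in day 16 mouse 1. For genes outside the 10 most used the same shares were 58.5% lambda, 49.9% IgM, 43.0% IgG1 and 5.96% IgG2b. Ighv1-53 cells were 81.1% lambda, Ighv1-58 cells 13.1%, and Ighv1-64 cells were 41.3% IgG2b. These shares pool cells of all mice and were not tested.

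Other members differed by fewer points. Ighv1-9 stood at 3.20% ± 2.03 in LZ and 1.13% ± 0.28 in DZ, with LZ above DZ in 6 of 6 (exact p = 0.03125; 0.208 after adjustment). Its LZ values ran from 1.79% to 6.73% and its DZ values from 0.71% to 1.56%. Both rested on few cells, since germinal centre cells with Ighv1-9 numbered 8 to 25 per mouse, DZ and LZ included. These ranges leave out counting error, so they do not show that the zones were separate in each mouse. Ighv1-64 was the gene of few PC, with 0 cells in 4 mice, 1 of 102 and 1 of 41. Its mean was 0.57% against 4.78% ± 3.28 in germinal centre cells (lower in 6 of 6 mice, exact p = 0.03125, adjusted p = 0.208). The 4 mice with 0 had 15, 11, 27 and 11 called PC, too few for a count of 0 to show a lower share in them. Ighv3-6 had a slope of −0.22 points per day in germinal centre cells, from a mean of 4.46% on day 10 to 1.81% on day 22 (exact p = 0.0222, adjusted p = 0.208). Ighv1-81 was at 9.99% ± 7.02 in preMem and 5.88% ± 5.31 in germinal centre cells, with 5 of 6 mice higher (exact p = 0.09375; 0.341 after adjustment). Ighv1-26 was at 6.79% ± 3.28 in preMem and 3.73% ± 1.00 in germinal centre cells, also higher in 5 of 6 mice (exact p = 0.09375).

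Diversity was measured as the repeat probability, the chance in percent that a random pair of called cells of a mouse share their gene, which does not depend on the number of cells. In DZ cells it was 2.55 and 4.17 on day 10, 5.90 and 5.19 on day 16, and 18.5 and 8.85 on day 22. In LZ cells of the same mice it was 2.54 and 4.39, 2.91 and 3.60, and 7.19 and 4.8. The means were 7.53% ± 5.78 in DZ and 4.24% ± 1.68 in LZ, lower in LZ in 5 of 6 mice, and the difference of −3.30 points did not pass the test (exact p = 0.09375, adjusted p = 0.188). Without cells of Ighv1-22, a setting added after the data were seen, the difference was −1.01 (exact p = 0.125). In germinal centre cells the repeat probability averaged 3.35% on day 10 and 9.15% on day 22, a slope of 0.48 per day that did not pass the test (exact p = 0.0667, adjusted p = 0.188). It was 0.23 per day without Ighv1-22 cells (exact p = 0.178).

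PreMem and PC cells gave means on either side of that of germinal centre cells. Their descent from these germinal centres was not tested. PreMem cells had a mean of 3.37% ± 1.96 against 5.47% ± 3.43 in germinal centre cells, lower in 3 of 6 mice (exact p = 0.3125, adjusted p = 0.417). On day 22 the preMem values were 4.30 and 0.69 against 12.0 and 6.32 in germinal centre cells. PC cells had a mean of 6.27% ± 4.79 (exact p = 0.8125), from 1.99 in day 16 mouse 2 to 14.5 in day 22 mouse 2. That mouse had 11 called PC, and without it the PC minus germinal centre difference of 0.80 points was −0.69. With at least 20 called cells, which kept 3 mice, it was −1.88.

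**Figure D3:**
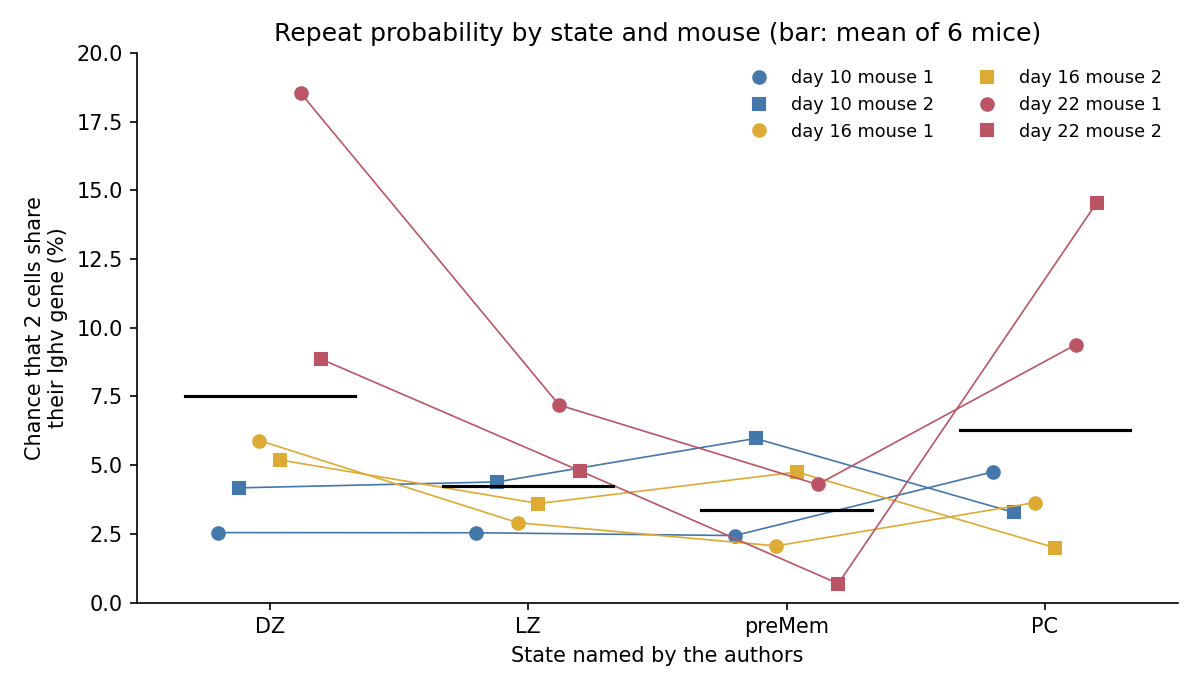
Chance that a pair of cells share their Ighv gene (%, vertical axis) in DZ, LZ, preMem and PC cells, with 1 line per mouse and a bar at the mean of 6 mice. Day 22 mouse 1 stands at 18.5 in DZ, and the 2 day 22 mice are the highest in DZ, LZ and PC but not in preMem.

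Light and dark zone cells of a mouse used the same genes in similar proportions. Morisita-Horn similarity, which is 0 for usages with no gene in common and 1 for identical usages, averaged 0.83 between LZ and DZ of the same mouse (0.72 to 0.95) and 0.54 between mice, a difference of 0.29 (exact 1-sided permutation p = 0.00139, the smallest that pairings of 6 mice can give; adjusted p = 0.00417). For the LZ cells of 6 of 6 mice the own DZ cells were the closest, but the DZ cells of day 16 mouse 2 were closer to the LZ cells of day 22 mouse 2 (0.84) than to their own (0.82). With Ighv1-22 cells left out the difference was 0.36 (exact p = 0.00139). For preMem with germinal centre cells the means were 0.51 and 0.45 (exact p = 0.0431, adjusted p = 0.0569), and for the preMem cells of 5 of 6 mice the germinal centre cells of another mouse were closer than the own. For PC with germinal centre cells they were 0.48 and 0.38 (exact p = 0.0569, adjusted p = 0.0569), with the own germinal centre cells closest to the PC cells in 3 of 6. Day 22 mouse 1 had the lowest values of both, 0.21 for preMem and 0.14 for PC, and without it the PC difference was 0.15 (exact p = 0.00833, adjusted p = 0.0125). Between mice, whole germinal centre usage had a mean similarity of 0.68 for the 3 pairs of the same day and 0.58 for the 12 pairs of other days (0.26 to 0.84).

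**Figure D4:**
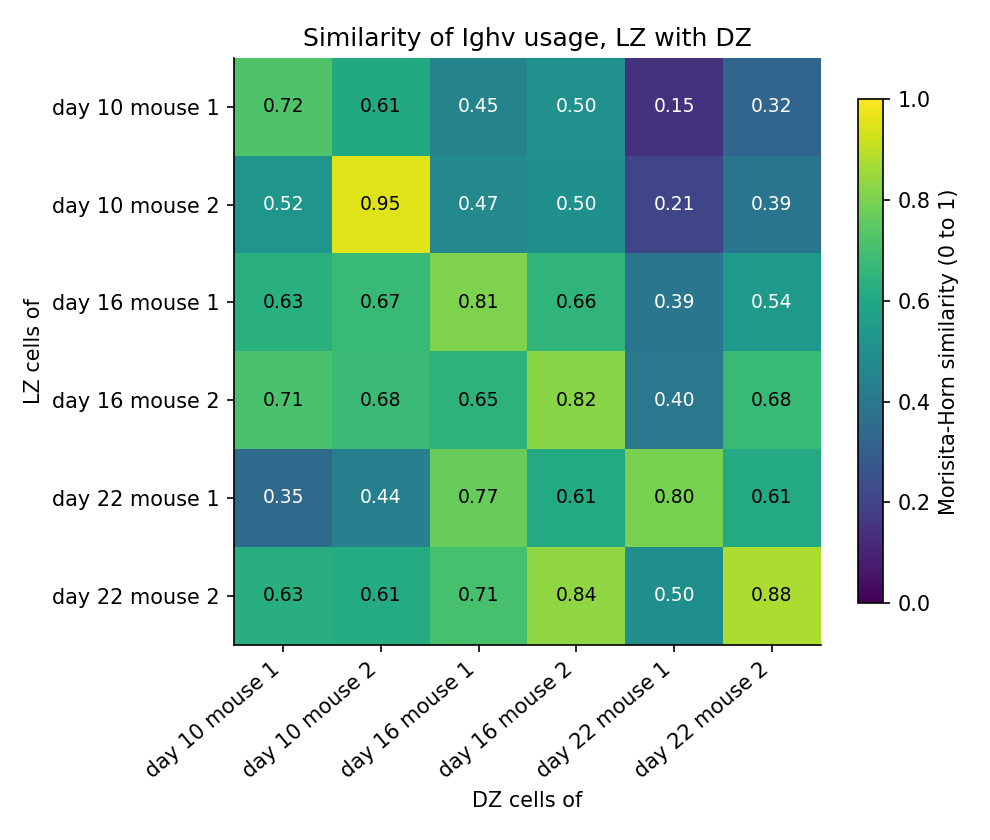
Morisita-Horn similarity of Ighv usage (0 to 1, colour and printed value) between LZ cells of each mouse (rows) and DZ cells of each mouse (columns). The diagonal, where both come from the same mouse, holds 0.72 to 0.95 and is the highest value of its row in all 6 rows.

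The leading gene of a mouse depended on the state. Over all its cells the top gene was Ighv14-2 in day 10 mouse 1, Ighv1-81 in day 10 mouse 2 and Ighv1-22 in the other 4 mice. Germinal centre cells had the same leaders, with 5.87%, 16.2%, 12.3%, 11.1%, 28.6% and 17.2% of called cells in the order of mice above. In preMem cells the leaders were Ighv14-3, Ighv1-81, Ighv1-64, Ighv1-81, Ighv8-8 and Ighv1-26, but in day 10 mouse 1 Ighv9-3, Ighv1-81 and Ighv1-26 had as many cells (3 of 42), and in day 22 mouse 2 Ighv1-42 and Ighv1-64 did (2 of 30). In PC cells they were Ighv14-4, Ighv1-15, Ighv2-2 (tied with Ighv1-9), Ighv10-1, Ighv3-6 and Ighv1-22. Ighv3-6 held 11 of 41 PC in day 22 mouse 1 (26.8%, exact 95% interval from 14.2%) and 0.60% of its germinal centre cells. The other PC leaders rested on 2 to 9 cells.

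Counting UMIs in place of cells gave another order. PC cells were 3.66% of cells and held 69.6% of the 333165 member UMIs. Ighv1-81 was 1st by UMIs, Ighv3-6 2nd, Ighv9-3 3rd and Ighv1-22 5th, with 4.54% of member UMIs. For Ighv3-6, 86.2% of the UMIs were in PC cells, and for Ighv1-22 45.2%. A single cell held 22.4% of all Ighv9-3 UMIs (4595) and 58.4% of those of Ighv14-3. In the non-PC well, among germinal centre cells with another dominant gene (median 8635 UMIs), 11.6% had at least 1 UMI of Ighv1-22 and 1.21% at least 2. For Ighv3-6, whose UMIs were mostly in PC, these shares were 4.69% and 0.42%.

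**Figure D5:**
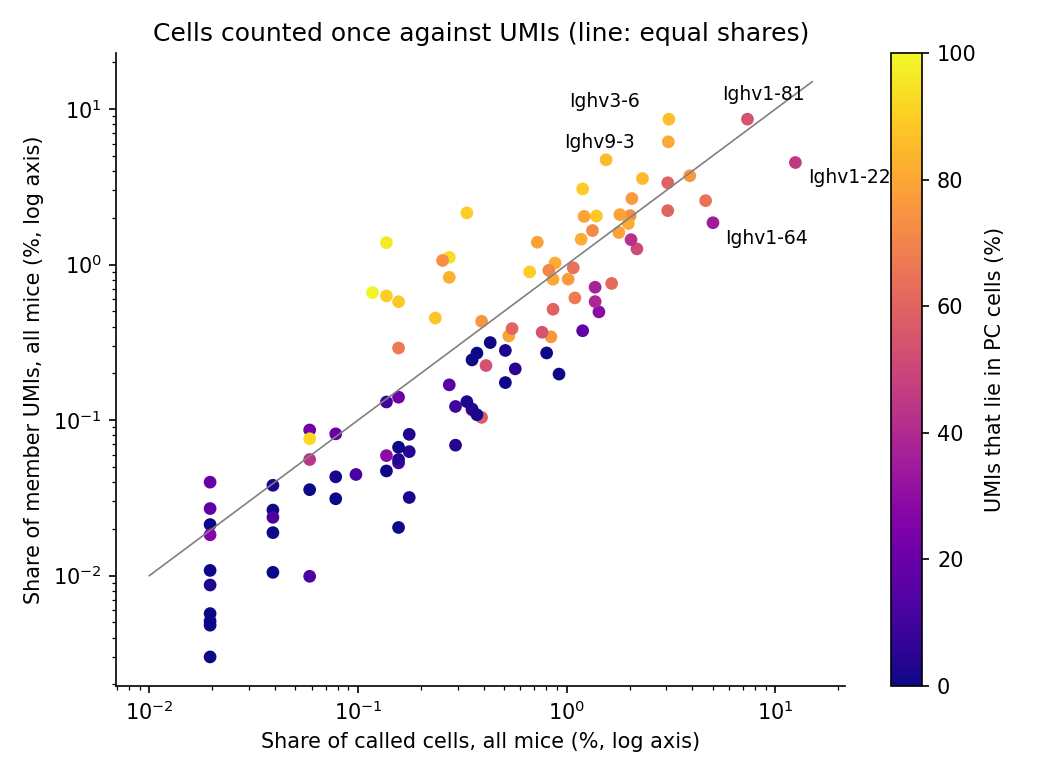
Share of member UMIs (%, vertical axis) against share of called cells (%, horizontal axis), both logarithmic and over all mice, for the 104 members with a called cell, coloured by the share of their UMIs in PC cells, with a line at equal shares. Ighv3-6 and Ighv9-3 lie above the line and Ighv1-22 and Ighv1-64 below it.

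UMI levels were also compared across all genes with edgeR's quasi-likelihood test on sums per mouse and state. A filter on low counts removed many members, and a member of low level passes it mainly through the group where it is high, so the counts below describe the members that passed. Between PC and germinal centre cells 56 of 124 passed, 16 were higher in PC, where 20.4% of all genes were called higher, and 0 were lower, where 25.5% of all genes were called lower (0 lower also at an unadjusted p under 0.05, and 1 by DESeq2). Their median log2 difference was 2.19 against −0.14 for all genes. Of germinal centre cells with a dominant Ighv gene, 4652 were in the non-PC well and 117 in the PC well. The part of the separate wells in the PC comparisons was not tested. Ighv1-22 was at 4440 ± 5649 CPM in PC and 102 ± 53.9 in germinal centre cells, higher in 6 of 6 mice. The log2 difference was 4.53 ± 0.76 (SE; adjusted p by edgeR 0.000584). By size Ighv1-76 (6.67 ± 1.95, adjusted p = 0.0163), Ighv5-9 (6.55 ± 2.02, adjusted p = 0.021), Ighv1-62-3 (6.19 ± 0.61, adjusted p = 1.02e-05) and Ighv9-4 (5.92 ± 1.05, adjusted p = 0.000832) came first. Single mice carried most of these: Ighv1-76 stood at 17628 CPM in PC of day 16 mouse 1, 7938 in day 10 mouse 1 and 0 in day 22 mouse 2, and 9 of the 16 called genes were higher in 3 or fewer of the 6 mice. The call of Ighv1-76 was lost without day 10 mouse 1 (adjusted p by edgeR 0.0599) or day 16 mouse 1 (0.0592), and that of Ighv5-9 without day 10 mouse 1 (0.0948) or day 16 mouse 2 (0.117). Ighv1-62-3 did not pass the filter without day 10 mouse 2, nor did Ighv9-4 without either day 10 mouse or day 22 mouse 1. Of the 16 calls, 3 held with any 1 mouse left out. Counted as cells with at least 2 UMIs, a setting added after the data were seen, 7 members passed the filter and 0 were called by edgeR (2 at an unadjusted p under 0.05). For Ighv1-22 that log2 difference was −0.83 (adjusted p = 0.191).

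Ighv1-62-3 was called higher in PC although it was the dominant gene of no cell. Over the V exon it is 99.0% identical to Ighv1-72, and 28 cells had at least 2 UMIs of both. The part of reads shared between these near copies was not tested.

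Between the zones 62 members passed the filter. Of these 13 were higher in LZ, where 16.5% of all genes were called higher, and 5 were lower, where 17.4% of all genes were called lower. Ighv1-22 was at 168 ± 89.2 CPM in DZ and 89.2 ± 37.4 in LZ, lower in 5 of 6 mice, by −0.83 ± 0.13 on the log2 scale (adjusted p by edgeR 0.00019). Its CPM in DZ was 59.8 and 58.6 on day 10, 183 and 216 on day 16, and 275 and 214 on day 22, and in LZ 32.3 and 68.9, then 81.0 and 103, then 141 and 109. The others that were lower in LZ were Ighv1-12 (−1.10 ± 0.34), Ighv5-9-1 (−1.0 ± 0.33), Ighv1-59 (−0.73 ± 0.24) and Ighv1-53 (−0.36 ± 0.11). Higher in LZ by most were Ighv5-9 (2.64 ± 0.59), Ighv1-74 (2.18 ± 0.34), Ighv1-39 (1.53 ± 0.41) and Ighv14-4 (1.36 ± 0.36). Of the 18 calls, 7 held with any 1 mouse left out. Among the genes named here, the calls lost were Ighv1-12 without either day 10 mouse (adjusted p by edgeR 0.0669 and 0.0781), Ighv5-9-1 without any of 4 mice (0.0507 to 0.197), Ighv1-59 without day 16 mouse 2 or either day 22 mouse (0.0685 to 0.18) and Ighv1-53 without either day 16 mouse or day 22 mouse 1 (0.0647 to 0.151). Ighv5-9 did not pass the filter without day 10 mouse 2, day 16 mouse 2 or day 22 mouse 1. DESeq2's test also called 5 of the 18, among them Ighv1-22, Ighv5-9 and Ighv1-74. It did not call Ighv1-12, Ighv5-9-1, Ighv1-59, Ighv1-53, Ighv1-39 or Ighv14-4 (adjusted p by DESeq2 0.0538 to 0.788). For Ighv1-74 the LZ values were 3.40 to 24.6 CPM and the DZ values 0 to 7.78, higher in LZ in 6 of 6 mice. When each cell was counted once, Ighv1-22 (−0.86, adjusted p = 5.64e-05) and Ighv1-53 (−0.46, adjusted p = 0.0205) were the 2 members called by edgeR.

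In preMem against germinal centre cells 61 members passed the filter, 19 higher, where 16.2% of all genes were called higher, and 5 lower, where 20.1% were called lower. Their median log2 difference was 0.69 against −0.01 for all genes. Over all mice, the median UMIs per cell were 5356.5 in preMem and 8556.5 in germinal centre cells. The median UMIs of the dominant gene were 11 and 10. CPM is relative to the total, and the part of the lower total of preMem cells in the higher calls was not tested. Ighv1-81 was higher in 6 of 6 mice, at 354 ± 240 CPM against 142 ± 162, by 1.55 ± 0.18 (edgeR adjusted p = 1.23e-06). Ighv1-22 was lower at 48.5 ± 30.1 against 123 ± 64.9 CPM, by −0.85 ± 0.27 (adjusted p = 0.0206), in 5 of 6 mice. Lower by most were Ighv1-54 (−2.84 ± 0.53), Ighv5-2 (−1.96 ± 0.50), Ighv14-2 (−1.42 ± 0.36) and Ighv1-12 (−1.40 ± 0.44). Higher by most were Ighv1-5 (4.06 ± 0.85), Ighv2-9-1 (3.13 ± 0.54), Ighv9-2 (3.05 ± 0.64) and Ighv1-50 (1.91 ± 0.47). Ighv1-5 stood at 136 and 328 CPM in preMem on day 16, at 96.0 and 0 on day 22 and at 0 and 5.98 on day 10. The call of Ighv1-22 was lost without day 16 mouse 1 (adjusted p by edgeR 0.0614), day 22 mouse 1 (0.0995) or day 22 mouse 2 (0.0708), that of Ighv14-2 without day 10 mouse 2 (0.0552) and that of Ighv1-12 without day 16 mouse 2 (0.169). Without day 10 mouse 2, Ighv1-5, Ighv9-2, Ighv5-2 and Ighv1-54 did not pass the filter, and Ighv1-54 also not without day 10 mouse 1. Of the 24 calls, 7 held with any 1 mouse left out. DESeq2's test also called 10 of the 24, but not Ighv5-2, Ighv14-2, Ighv1-12 or Ighv1-5 (adjusted p by DESeq2 0.0931 to 0.324). Counted as cells, Ighv1-81 (0.89, adjusted p = 0.00992), Ighv1-26 (1.04, adjusted p = 0.00588) and Ighv1-22 (−1.41, adjusted p = 0.0175) were called. Ighv1-64 was called by UMIs (1.13 ± 0.23) and stood at 0.03 by cells.

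Over the 3 days in germinal centre cells 92 members passed the filter and 5 were called by edgeR's F test, 5.43% against 0.830% of all genes. Ighv1-22 was at 47.4 and 60.9 CPM on day 10, 117 and 145 on day 16, and 227 and 160 on day 22 (log2 difference 1.82 between days 22 and 10, adjusted p = 0.016). Ighv5-17 was at 41.5 and 50.0, then 42.4 and 41.7, then 16.4 and 10.6 CPM (−1.76, adjusted p = 0.0153). Lower on day 22 than on day 10 were also Ighv1-76 (−2.64, adjusted p = 0.0495), Ighv14-3 (−1.18, adjusted p = 0.0367) and Ighv1-19 (−0.58, adjusted p = 0.0367), the last of them lowest on day 16. The median of the 92 was −1.29 between days 22 and 10 against 0.00037 for all genes, beside the lower UMIs of the dominant gene given above. Ighv5-17 was called with any 1 mouse left out. The call of Ighv1-22 was lost without either day 10 mouse (adjusted p by edgeR 0.0501 and 0.0522), that of Ighv1-19 without any of 4 mice (0.0796 to 0.152), and those of Ighv1-76 (0.0539 to 0.128) and Ighv14-3 (0.0527 to 0.0917) without any of 5. DESeq2's test called 18 members, and without day 22 mouse 2 edgeR called 14, with no share of all genes set beside these counts. Each cell counted once gave 0 calls by edgeR, with 9 at an unadjusted p under 0.05.

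The other antibody genes were counted beside the shares of all genes called. In PC cells, where 20.4% of all genes were called higher and 25.5% lower, 6 of 8 heavy chain constant genes were higher and Ighd was lower (−3.93 ± 0.61), and 4 of 4 light chain constant genes were higher, among them Igkc (3.46 ± 0.13). Of the 10 genes for receptor assembly, recombination and mutation 7 were tested. There Jchain, which joins secreted IgM and IgA, was higher (4.26 ± 0.12) and 4 were lower. In LZ against DZ (16.5% and 17.4% of all genes) calls went both ways: 2 of 7 heavy constant genes were higher and 3 lower, 0 of 4 light constant genes higher and 2 lower, and 3 of 7 of the last group higher and 3 lower, with Ung, a DNA repair enzyme, at 0.55 ± 0.06. In preMem cells (16.2% and 20.1% of all genes) Ighd (4.39 ± 0.20) and Ighm (0.81 ± 0.15) were higher and Ighg1 (−0.41 ± 0.10) was lower, 3 of 4 light constant genes were higher, and 3 of 7 of the last group were higher and 4 lower. Over the days (0.830% of all genes) Ighm (−1.02) and Ighg3 (3.01) were called among the heavy constant genes, and 0 of the other lists.

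Some cells held UMIs of a pair of Ighv genes, and several pairs came from a single mouse. At least 2 UMIs of a second Ighv gene occurred in 20.2% of LZ, 22.6% of DZ, 23.6% of preMem and 60.3% of PC cells. The top gene had a median of 7, 8, 10 and 826 UMIs in these states, and the second gene in PC a median of 3. The cut of 2 UMIs was the same for all, so the shares do not compare the states at equal depth. By the number of dominant cells with a second gene, Ighv1-22 (99 of 638), Ighv1-81 (79 of 376) and Ighv9-3 (51 of 157) led. Ighv1-22 and Ighv9-3 occurred together in 50 cells, 46 of them in day 22 mouse 2, and their V exons are 65.6% identical. Ighv1-58 and Ighv5-4 occurred together in 34 cells, all of day 22 mouse 1 (63.4% identical). Ighv1-2, an annotated pseudogene, occurred with Ighv9-3 in 22 cells, all of day 22 mouse 2, and with Ighv1-12 in 17 cells, all of day 16 mouse 2. The pair Ighv1-66 and Ighv1-75, 93.4% identical, was spread over all 6 mice (23 cells). Droplets with more than 1 cell were not removed here, and their part in these pairs was not tested.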

How the data were processed

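The deposited matrix holds raw UMI counts per gene and cell, made by the authors with Cell Ranger and Seurat on mm10/GRCm38, per the submitters' processing notes (versions not given). The deposited cell table gives the day, mouse, state and phase, and the authors' module scores (unit: score), which were not used. The mouse was the replicate (n = 6), taken from that table because each library pools mice.

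A cell was called for a gene with at least 2 UMIs and 2 times the next, and a mouse and state entered with at least 10 called cells. Exact permutation tests used sign changes within mice, all 90 orders of days or all pairings of mice, adjusted by Benjamini-Hochberg over 4 diversity, 3 similarity and 40 share comparisons. Sums of at least 10 cells were fitted with edgeR 4.0.16 (TMM, filterByExpr, threshold 0.05; SE from the F statistic; R 4.3.3). The mouse entered the fits between states as a block because both states came from the same animal. This block does not account for the separate wells of the PC and non-PC fractions. A clear light chain or isotype used the same rule as the V gene. The edgeR fits were also run on simulated counts with the same dispersion for every gene and no mouse effect. Such counts hold no genes carried by single cells, so that run does not bear on them. DESeq2 1.42.0 was an alternative. V exons were aligned with Biopython 1.88 over at least 250 bases.

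Genes were named by rule: the 10 most used, the top gene of each mouse and state, up to 4 per direction with the largest differences in edgeR, and the 3 with most second genes. Members, lists and tests were chosen with earlier results of these data known. Doublets were not removed, and their treatment by the authors is not given in the sources used here. Intervals cover counting error only, at 95%.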

Additional observations from a re-analysis of the deposited data

Results flagged for a closer look

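In 2 of 18 groups of 6 mice, 1 mouse lay far from the others; chance alone flags about 1 in 20 such groups, and the mice differ in day. Ighv1-81 held 16.6% of called cells in day 10 mouse 2, against at most 6.43% elsewhere. Ighv1-58 held 11.9% in day 22 mouse 1, against at most 0.92% elsewhere.

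The within-mouse differences between states were also compared over the days (33 differences, exact test of the slope; adjusted p = 0.293 for each of the 5 slopes that follow). The LZ minus DZ repeat probability difference had a slope of −0.65 points per day (exact p = 0.0222), from −0.01 and 0.22 on day 10 to −11.3 and −4.06 on day 22. The preMem minus germinal centre repeat probability difference had a slope of −0.63 per day (exact p = 0.0444). For the Ighv1-22 share the LZ minus DZ difference had a slope of −1.22 points per day (exact p = 0.0444), from −2.42 and −0.72 to −21.8 and −10.6, and the preMem minus germinal centre difference one of −1.86 (exact p = 0.0222), from −0.82 and −0.39 to −28.6 and −17.2. The Ighv1-22 share in preMem cells was at most 3.70% in any mouse, so the latter slope mostly repeats the rise in germinal centre cells. A difference in points between LZ and DZ can also widen as both shares rise. These Ighv1-22 slopes are therefore not separate from the slope over the days given above. The Ighv6-3 share in preMem minus germinal centre cells had a slope of −0.62 per day (exact p = 0.0444).

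In 3 further differences both mice of 1 day lay on the opposite side of 0 from both mice of another, which was not tested. The Ighv1-53 share in preMem minus germinal centre cells averaged 0.57 points on day 10 and −4.74 on day 16, and in PC minus germinal centre cells −3.03 on day 10 and 6.96 on day 22. The Ighv1-9 share in PC minus germinal centre cells averaged 6.01 on day 10 and 9.48 on day 16, against −2.27 on day 22.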

How the results depend on the processing

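The similarity of LZ with DZ kept its direction and its side of the threshold under all alternatives run. For the other similarities, preMem was past the threshold with at least 5 UMIs and 3 times the next gene (0.0776) and with Bray-Curtis similarity (0.0387), and PC with Ighv1-72 cells kept (0.129); leaving out 1 mouse gave 0.0173 to 0.0856 for preMem and 0.0487 to 0.155 for PC. The PC minus germinal centre repeat probability was −1.88 with at least 20 called cells and −0.69 to 1.48 with 1 mouse left out. The expected number of genes among 10 cells, which is higher where cells repeat their gene less, differed by 0.63 for LZ minus DZ, 0.56 for preMem and −0.32 for PC minus germinal centre, and had a slope of −0.12 per day, each in the same sense of diversity. Share comparisons with a p under 0.05 numbered 6, and 3 with shares of UMIs; with 5 mice the sign test cannot reach that p, so no count was made, and the Ighv1-22 LZ minus DZ difference ran from −10.6 to −6.36.

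Counts of called members moved most. The share of all genes called under each setting is not set beside these counts. They therefore do not tell a change in the members from a change in all genes. With no replicate block they were 49 in PC against 16 with it, 3 in LZ against 18, and 11 in preMem against 24. With no filter they were 39 in PC, 44 in LZ and 38 over the days; with DESeq2's test 6 in LZ, 11 in preMem and 18 over the days; with at least 30 cells 43 in PC (2 mice); with cells thinned 8 over the days. With each cell counted once, added after the data were seen, they were 0 in PC, 2 in LZ, 3 in preMem and 0 over the days. Leaving out 1 mouse gave 12 to 19, 13 to 18, 21 to 28 and 3 to 14. The calls past the threshold in each such fit were 3 of 16 in PC, 7 of 18 in LZ, 7 of 24 in preMem and 1 of 5 over the days. The causes were not tested. The number of mice, 2 per day, and 11 to 102 called PC per mouse limit precision. Thinning to equal depth left out 662 cells.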

Other observations

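Of the states not compared above, LZtoDZ cells gave 178 called cells and prePC cells 43. In LZtoDZ cells Ighv1-22 led on day 22, with 21 of 48 cells in day 22 mouse 1 (43.8%, exact 95% interval 29.5% to 58.8%) and 10 of 30 in day 22 mouse 2 (33.3%, 17.3% to 52.8%). It was 1 of 42 in day 10 mouse 2, 2 of 15 and 4 of 37 on day 16. Repeat probability there was 22.9 and 12.2 on day 22 against 4.76 and 4.95 on day 16. Called prePC cells carried 29 genes, and 25 of the 43 came from day 10 mouse 2, where Ighv1-81 led with 4 cells and Ighv1-22 was in 0 of 25, which allows up to 12% by the limit of 3 counts. Day 22 prePC cells numbered 5 and 6 called, each with another gene within its mouse.

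Within the dark zone Ighv1-53 was at 15.3% of called cells in day 22 mouse 2, behind Ighv1-22 at 22.6%. In LZ cells of that mouse these genes stood close together, with Ighv1-53 at 12.7% and Ighv1-22 at 12.0% of 457 called cells. Their order there was not tested. By this small margin it was the 1 mouse of days 16 and 22 whose LZ and DZ leaders differed.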
